A study of Homo sapiens with 9 samples.

Results

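SR proteins and heterogeneous nuclear ribonucleoproteins (hnRNPs) are the main families of RNA-binding proteins that steer the choice of splice sites, and their transcripts were followed here across 3 siRNA groups. The members were all probe sets annotated with 1 gene symbol that was SRSF plus a number, TRA2A, TRA2B, SON, SRRM1 or SRRM2 (the SR family), or that began with HNRNP or was PTBP1, PTBP2, PTBP3, PCBP1, PCBP2, RALY or SYNCRIP (the hnRNP family). The rule found 37 of the 22011 probe sets, 15 for 14 SR genes and 22 for 22 hnRNP genes, and used no measured value. Another 12 probe sets carried a family symbol beside other genes and were left out, so that SRSF2, SRSF5, HNRNPA1 and HNRNPK, for example, were not analysed here.

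All samples were HEK293 cells, a human embryonic kidney line, grown in DMEM with serum. RNA was taken 48 h after transfection of stealth siRNAs: a control siRNA in the group siCTR, one against DBC1 in siDBC1, and one against ZNF326 (ZIRD) in siZNF326. Each group held 3 arrays, which the design text describes as independent experiments. DBC1, the product of CCAR2, and ZNF326 form the DBIRD complex, which is studied for its contact with RNA polymerase II and its role in alternative splicing. The comparison asked whether the transcripts of splicing regulators themselves differ when either subunit is targeted. Values are log2 expression values, 1 per probe set and array, from bulk RNA, in which fewer cells of a kind and less RNA per cell cannot be told apart. The identity of the line was not checked against marker genes. The labels do not give the siRNA sequences, and the arrays measure whole transcripts here, so exon inclusion was not analysed.

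The SRSF and TRA2 proteins of the SR family carry RNA recognition motifs and a domain rich in arginine and serine. They bind enhancer sequences in exons and help U1 and U2 particles to recognise the neighbouring splice sites. The hnRNPs coat nascent transcripts and often act against them, by covering splice sites or looping exons out. Many members of both families limit their own level by switching their transcript to a form with a premature stop codon, which nonsense-mediated decay destroys. Transcript levels of these genes are therefore tied to splicing itself.

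The promoters of an SR gene with wide variation between arrays (SRSF3) and of the gene that marks each family here (SRSF4 and HNRNPM) show the start regions of the genes whose values follow. Each is the stretch of 250 bases before the transcription start in RefSeq on GRCh38.p14, read 5′ to 3′ on the strand of the gene. Capitals mark matches, on either strand, of the TATA box TATAAA, the CCAAT box CCAAT, the GC box GGGCGG and the ETS core CTTCCG, which were searched without regard to overlap.
SRSF3, chr6:36594112-36594361, + strand: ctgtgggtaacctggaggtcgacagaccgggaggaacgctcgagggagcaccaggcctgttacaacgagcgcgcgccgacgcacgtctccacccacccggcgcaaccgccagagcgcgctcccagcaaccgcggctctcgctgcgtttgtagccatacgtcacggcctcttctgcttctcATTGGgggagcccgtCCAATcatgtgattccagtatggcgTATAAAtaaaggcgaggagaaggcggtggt
SRSF4, chr1:29181901-29182150, - strand: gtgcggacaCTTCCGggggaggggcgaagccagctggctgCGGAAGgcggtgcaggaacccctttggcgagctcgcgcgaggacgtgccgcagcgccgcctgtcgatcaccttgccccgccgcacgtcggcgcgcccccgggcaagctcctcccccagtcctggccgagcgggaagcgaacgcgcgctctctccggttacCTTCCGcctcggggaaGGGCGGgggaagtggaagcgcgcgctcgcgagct
HNRNPM, chr19:8444725-8444974, + strand: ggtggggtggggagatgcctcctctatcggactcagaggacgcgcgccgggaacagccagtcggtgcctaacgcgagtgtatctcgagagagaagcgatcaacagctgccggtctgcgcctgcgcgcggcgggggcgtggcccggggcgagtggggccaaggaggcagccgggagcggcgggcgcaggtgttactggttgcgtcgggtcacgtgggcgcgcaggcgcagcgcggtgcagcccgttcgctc
A TATA box and CCAAT boxes stood in the window of SRSF3, a GC box and ETS cores in that of SRSF4, and none of these letters in that of HNRNPM. Promoters in the table matched 35 of the 36 genes, some with several starts, and TRA2A had none. The GC box was in 25 of 33 hnRNP promoters (75.8%) and 7 of 17 SR promoters (41.2%), against 42.6% of all 35116 promoters in the table. The CCAAT box was in 15 of the hnRNP promoters (45.5%) and 3 of the SR promoters (17.6%), against 32% of all. The TATA box was in 3 SR (17.6%) and 2 hnRNP promoters (6.06%), against 10.7% of all, and the ETS core in 4 (23.5%) and 10 (30.3%), against 16.5%. Median GC content was 63.6% in the SR and 66% in the hnRNP promoters against 58% overall. Starts of the same gene share sequence, so these shares are descriptions, and a match is no evidence of a bound factor.

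The labels were checked on the targeted genes, and the arrays differed in ways that touch every result below. CCAR2 fell in siDBC1, from 7.72 ± 0.096 (SD, n = 3) to 6.56 ± 0.078 (limma, log2 difference −1.16, SE 0.079, adjusted p = 0.0116). The value of ZNF326 in siZNF326 did not lie below the control, with 5.55 ± 0.27 in siCTR and 5.83 ± 0.28 (SD, n = 3) in siZNF326 (difference 0.28, adjusted p = 0.851), so siZNF326 is used below as the label of these arrays, and no direction is tied to a loss of ZNF326. In siDBC1 ZNF326 read 6.40 ± 0.85 (difference from siCTR 0.85, unadjusted p = 0.0628, adjusted p = 0.844 by limma). CCAR2 read 7.99 ± 0.030 in siZNF326, with all 3 arrays above the controls (difference 0.26, unadjusted p = 0.0115, adjusted p = 0.378). Array medians ran from 5.58 to 5.9, the lowest in siDBC1 replicate 2 and the highest in siDBC1 replicate 3 and siZNF326 replicate 1. Limma called 8 probe sets between siDBC1 and siCTR, 33 between siZNF326 and siCTR and 2 between siZNF326 and siDBC1 at an adjusted p below 0.05. These are 0.0363%, 0.15% and 0.00909% of all probe sets. Of the 33 calls 20 were higher and 13 lower in siZNF326, but 89 and 107 after quantile normalization and 57 and 62 after median centring. Between siZNF326 and siDBC1 the split was 1 and 1, then 18 and 10, then 4 and 5.

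No SR or hnRNP probe set passed in any of the 3 comparisons (0 of 37 each). At an unadjusted p below 0.05 the count was 1 of 37 in siDBC1 against siCTR (HNRNPM), where all probe sets gave 6.18%. It was 3 of 37 in siZNF326 against siCTR (HNRNPM, HNRNPH2 and SRSF10), where all gave 8.65%, and 1 of 37 between siZNF326 and siDBC1 (TRA2A), where all gave 7.31%. These shares lie near the background of each comparison. The smallest adjusted p among the members was 0.501, that of HNRNPM in siZNF326.

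The intervals limit the size of what could be missed. In siDBC1 against siCTR the 95% interval of limma lay within 2-fold in either direction for 34 of 37 probe sets and within 1.5-fold for 23. In siZNF326 the numbers were 31 and 15. The fit used a shared estimate of the spread for all 3 groups, so the siZNF326 intervals also carry the spread of the siDBC1 arrays. With only siZNF326 and siCTR in the fit, the SE of this difference fell from 0.22 to 0.099 for SRSF7. It fell from 0.35 to 0.18 for SRSF3 and stayed at 0.19 for a probe set of TRA2A. The hnRNPs were measured more tightly than the SR genes: 15 of 22 hnRNP and 8 of 15 SR intervals lay within 1.5-fold in siDBC1, and 11 of 22 and 4 of 15 in siZNF326. The probe sets with an interval reaching past 2-fold in siDBC1 were SON, SRSF3 and PTBP2. These intervals are for each probe set alone, without correction for their number.

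**Figure D1:**
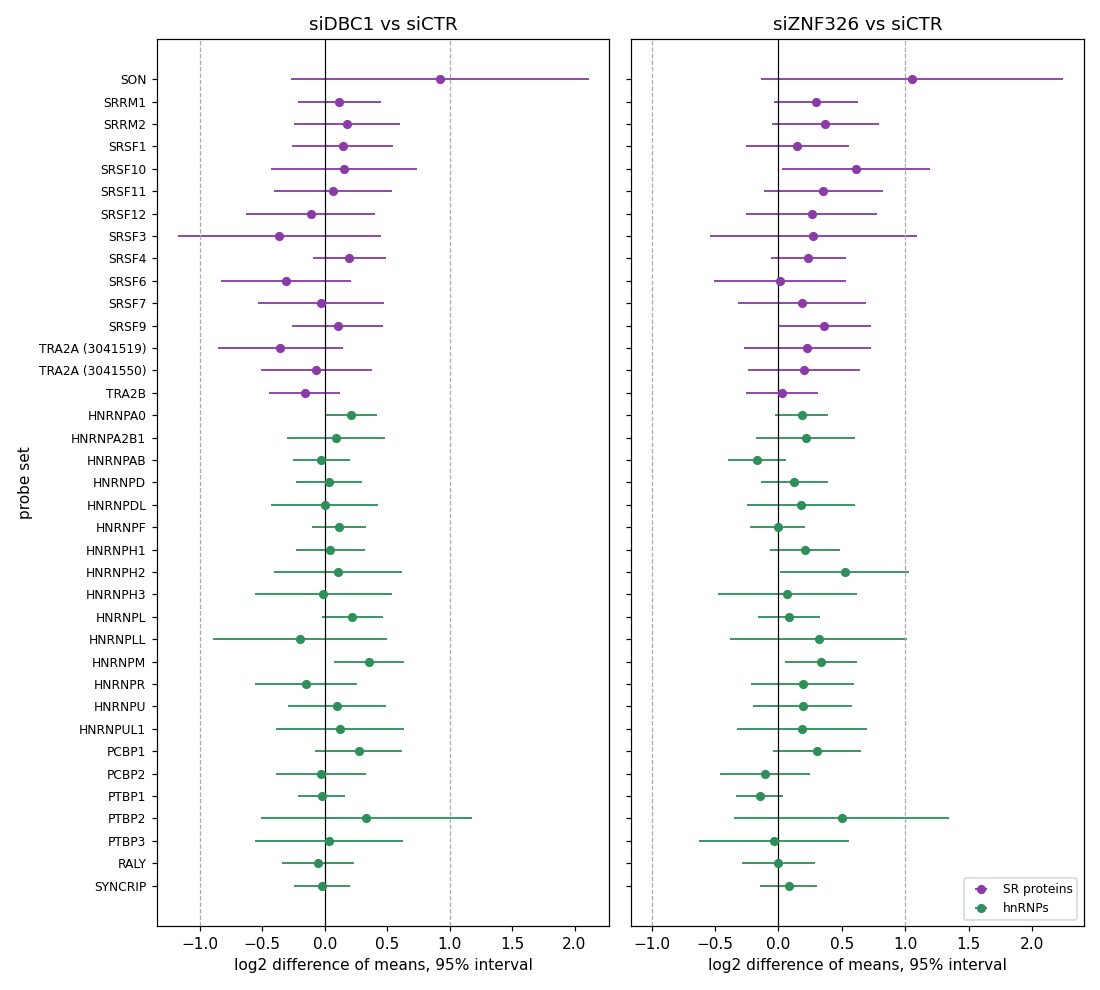
Log2 difference of group means from siCTR for all 37 probe sets, with the 95% interval of the limma fit (x axis) and one line per probe set, SR proteins in purple and hnRNPs in green. Dashed lines mark a 2-fold difference; 34 of 37 intervals on the left (siDBC1) and 31 of 37 on the right (siZNF326) stay inside them, and all 15 SR points on the right lie above 0 (13 of 15 after quantile normalization or median centring).

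The members shared a pattern over single arrays. Measured from the siCTR mean of each probe set, the median SR distance was 0.050, −0.31 and 0.37 in siDBC1 replicates 1, 2 and 3, and the median hnRNP distance was 0.046, −0.22 and 0.34. In the arrays labelled siZNF326 the SR medians were 0.46, 0.080 and 0.23 and the hnRNP medians 0.33, 0.068 and 0.12. In the siCTR arrays both stayed between −0.041 and 0.057. Both families were thus low in siDBC1 replicate 2 and high in siDBC1 replicate 3 and siZNF326 replicate 1, so the replicates of siDBC1 lay on opposite sides of the control.

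The same arrays moved the whole table, but by less. Over all probe sets the median distance was −0.060 in siDBC1 replicate 2, 0.085 in siDBC1 replicate 3 and 0.075 in siZNF326 replicate 1. Over the 11005 probe sets above the median level it was −0.20, 0.19 and 0.21. Of the 37 members 25 had their lowest value of all 9 arrays in siDBC1 replicate 2, where 33.5% of all probe sets had theirs. In that array 1 member and 14.7% of all probe sets had their highest value. The highest value lay in siDBC1 replicate 3 for 15 members and in siZNF326 replicate 1 for 14, where all probe sets gave 19.2% and 25.3%. After quantile normalization, which gives every array the same distribution, the median SR distance in these 3 arrays was −0.16, 0.10 and 0.19 and the median hnRNP distance −0.0040, 0.10 and 0.077. The part that the state of the arrays has in the values below was not tested.

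**Figure D2:**
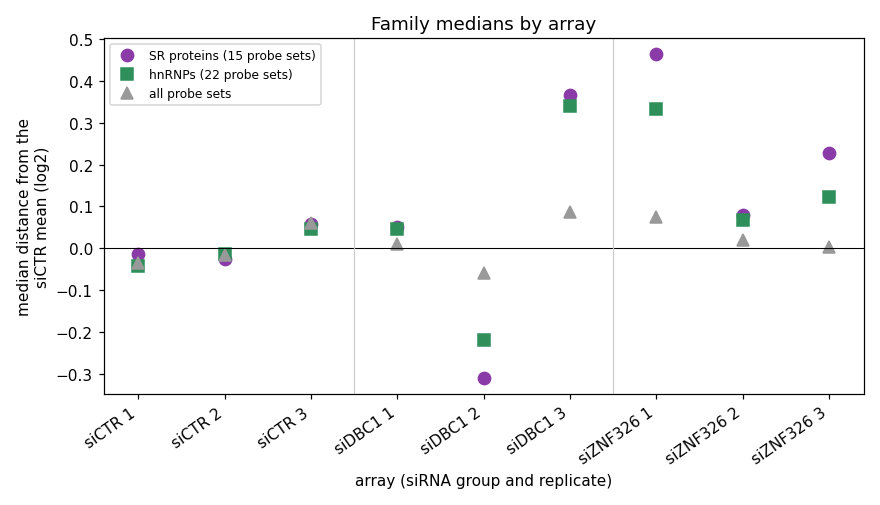
Median log2 distance from the siCTR mean (y axis) on each of the 9 arrays (x axis) for the SR probe sets (purple circles), the hnRNP probe sets (green squares) and all probe sets (grey triangles). Both families are lowest in siDBC1 replicate 2 (−0.31 and −0.22) and high in siDBC1 replicate 3 and siZNF326 replicate 1, while the median of all probe sets stays between −0.060 and 0.085. Probe sets above the median level, not drawn, had medians of −0.20, 0.19 and 0.21 in these arrays, in this order.

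The spread between replicates was also measured. The median SD of an SR probe set was 0.13 in siCTR, 0.34 in siDBC1 and 0.24 in siZNF326, and that of an hnRNP probe set 0.070, 0.27 and 0.15. Over all probe sets the medians were 0.13, 0.23 and 0.16, and over those above the median level 0.13, 0.26 and 0.17. Within siCTR the hnRNPs had the smaller median SD. In siDBC1 the SR median lay above that of probe sets above the median level and the hnRNP median close to it. No test of this difference in spread was made.

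SRSF4, which marks the SR family here and binds enhancers in exons, read 8.77, 8.96 and 8.91 in siCTR, 9.15, 8.83 and 9.25 in siDBC1 and 9.21, 8.97 and 9.17 in siZNF326. Its siDBC1 arrays overlapped the controls and its siZNF326 arrays all lay above them, as deposited. After quantile normalization or median centring the siZNF326 arrays overlapped the controls, and after median centring the siDBC1 arrays lay fully above them (difference 0.18). The differences were 0.20 (SE 0.13, adjusted p = 0.931) and 0.24 (SE 0.13, adjusted p = 0.649), with 95% intervals from −0.097 to 0.49 and from −0.057 to 0.53. The siDBC1 difference was 0.32 without siDBC1 replicate 2 and 0.11 without siDBC1 replicate 3.

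SRSF3, the smallest SR protein, which also takes part in mRNA export, varied most of the SRSF genes. It read 9.14, 8.92 and 9.17 in siCTR, 8.64, 8.0 and 9.51 in siDBC1 and 9.70, 9.09 and 9.26 in siZNF326. Replicates 1 and 2 of siDBC1 were below every control array and replicate 3 above every one. The mean differed from siCTR by −0.36 (SE 0.35, adjusted p = 0.969) in siDBC1 and by 0.27 (adjusted p = 0.837) in siZNF326, and siZNF326 exceeded siDBC1 by 0.64 (SE 0.35, adjusted p = 0.735). Without siDBC1 replicate 3 the siDBC1 difference was −0.76 (adjusted p = 0.454), and without siDBC1 replicate 2 it was −0.0053. The difference between siZNF326 and siDBC1 was 1.03 and 0.28 without these arrays in turn.

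TRA2A and TRA2B are SR-like activators related to the fly sex-determination factor transformer 2. The first of the 2 probe sets of TRA2A read 6.66, 6.60 and 6.85 in siCTR, 6.24, 6.02 and 6.77 in siDBC1 and 7.23, 6.65 and 6.91 in siZNF326. Replicates 1 and 2 of siDBC1 were the lowest of all 9 arrays. The difference between siZNF326 and siDBC1 was 0.59 (SE 0.22, unadjusted p = 0.0275, adjusted p = 0.657 by limma), and siDBC1 differed from siCTR by −0.36 (adjusted p = 0.928). The latter was −0.20 without siDBC1 replicate 2 and −0.57 without siDBC1 replicate 3. The other TRA2A probe set gave 0.27 and −0.069 (SE 0.19 for each) for these differences, with the same signs at smaller size. Its siDBC1 arrays, at 4.85, 4.57 and 5.01, overlapped its controls. Without siDBC1 replicate 2 its difference between siDBC1 and siCTR was 0.051, of the opposite sign.

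SRSF6, a regulator of exon choice, read 7.21, 7.20 and 7.27 in siCTR, 6.86, 6.54 and 7.36 in siDBC1 and 7.59, 7.08 and 7.04 in siZNF326. Again replicates 1 and 2 of siDBC1 were below all controls and replicate 3 was above them, with a mean difference of −0.31 (SE 0.22, adjusted p = 0.953). It was −0.12 without siDBC1 replicate 2 and −0.53 without siDBC1 replicate 3. After quantile normalization or median centring, all 3 siDBC1 arrays of SRSF6, of the first TRA2A probe set and of TRA2B lay below all 3 siCTR arrays. The differences after quantile normalization were −0.33, −0.39 and −0.16, and none passed (adjusted p = 0.389, 0.338 and 0.636 in limma). That made 3 of 15 SR and 0 of 22 hnRNP probe sets fully below siCTR, against 7.96% of all probe sets with quantile normalization and 6.77% with median centring. In the values as deposited 0 SR and 0 hnRNP probe sets were fully below, against 3.66% of all. Fully above siCTR after quantile normalization were SON, HNRNPM and PCBP1, against 6.8% of all. After median centring they were SON, SRSF1, SRSF4, HNRNPF and HNRNPM, against 6.55%.

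SRSF10, which represses splicing when dephosphorylated, read 5.47, 5.29 and 5.03 in siCTR, 5.58, 5.02 and 5.64 in siDBC1 and 5.95, 5.41 and 6.26 in siZNF326. The groups overlapped, since siZNF326 replicate 2 lay within the control range. The siZNF326 difference was 0.61 (SE 0.25, unadjusted p = 0.0429, adjusted p = 0.558) with an interval from 0.025 to 1.2. SRSF9 read 9.99, 10.40 and 10.31 in siCTR and 10.34, 10.67 and 10.77 in siZNF326, a difference of 0.36 (SE 0.16, adjusted p = 0.579) with overlapping groups. In siDBC1 SRSF9 differed by 0.10 (adjusted p = 0.985).

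SRSF12, a member related to SRSF10, differed by −0.11 in siDBC1 and 0.26 in siZNF326. Its lowest array was siDBC1 replicate 2 at 5.74 and its highest siZNF326 replicate 1 at 6.85. In the other arrays it read 6.26 to 6.62, and no difference passed (adjusted p = 0.997 and 0.762). The 4 remaining SRSF and TRA2 genes, SRSF1, SRSF7, SRSF11 and TRA2B, differed from siCTR by −0.16 (TRA2B) to 0.14 (SRSF1) in siDBC1 and by 0.027 (TRA2B) to 0.35 (SRSF11) in siZNF326.

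SON, SRRM1 and SRRM2 are large nuclear speckle proteins with long repeats rich in serine and arginine. SON had the largest differences from siCTR of the members, and they moved with single arrays. Its siCTR arrays read 5.0, 6.47 and 6.51, its siDBC1 arrays 6.62, 6.39 and 7.72 and its siZNF326 arrays 7.60, 6.94 and 6.59. The differences were 0.92 in siDBC1 (SE 0.51, adjusted p = 0.919) and 1.05 in siZNF326 (SE 0.51, adjusted p = 0.618). Without siCTR replicate 1 they were 0.42 and 0.56, and without siDBC1 replicate 3 the siDBC1 difference was 0.52. SRRM1 differed by 0.11 (adjusted p = 0.983) and 0.30 (adjusted p = 0.615), and SRRM2 by 0.18 and 0.37 (adjusted p = 0.976 and 0.621). The siZNF326 arrays of SRRM2, at 8.80, 8.62 and 8.50, all lay above its controls of 7.96, 8.40 and 8.45.

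**Figure D3:**
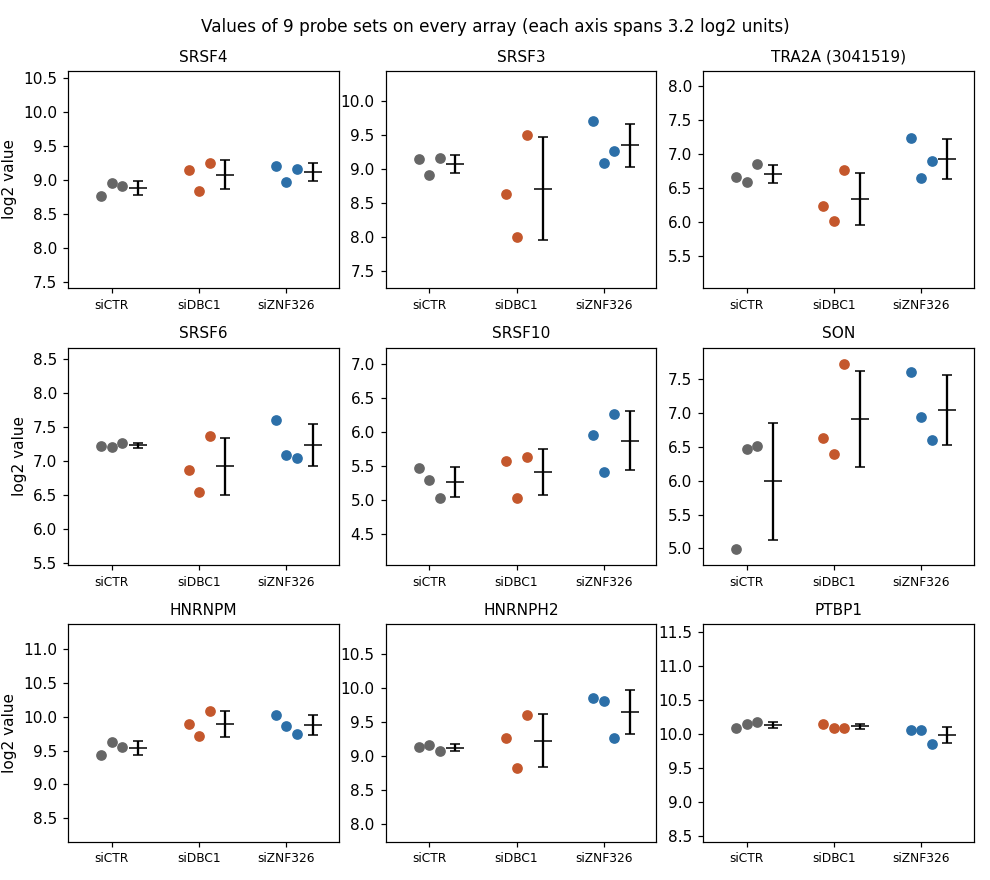
Log2 values (y axis) of 9 probe sets on every array, by siRNA group (x axis); points are arrays in the order of replicates 1 to 3, and bars give the mean ± SD of 3 arrays. In SRSF3, TRA2A and SRSF6 replicates 1 and 2 of siDBC1 lie below the controls, replicate 3 stands above them in SRSF3 and SRSF6 and among them in TRA2A, and in HNRNPM all arrays of both other groups lie above the 3 controls.

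HNRNPM, which marks the hnRNP family here and represses or activates exons through GU-rich sites, was the member with the smallest p against siCTR in both groups. It read 9.43, 9.63 and 9.55 in siCTR, 9.89, 9.71 and 10.08 in siDBC1 and 10.03, 9.85 and 9.74 in siZNF326. All 6 arrays of the other groups lay above all 3 controls, and both comparisons share those controls. The differences were 0.35 (SE 0.12, unadjusted p = 0.0208, adjusted p = 0.707), or 1.28-fold, and 0.33 (SE 0.12, unadjusted p = 0.0264, adjusted p = 0.501), or 1.26-fold. Leaving out 1 array at a time kept them between 0.26 and 0.45 and between 0.26 and 0.40. Between siZNF326 and siDBC1 the difference was −0.019 (interval −0.30 to 0.26).

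The poly(C)-binding protein PCBP1 read 8.0, 7.95 and 7.98 in siCTR, 8.31, 7.90 and 8.52 in siDBC1 and 8.39, 8.22 and 8.22 in siZNF326. Its siZNF326 arrays were clear of the controls and siDBC1 replicate 2 was below them, with differences of 0.27 (adjusted p = 0.919) and 0.30 (adjusted p = 0.626). The siDBC1 difference was 0.44 without siDBC1 replicate 2 and 0.13 without siDBC1 replicate 3. PCBP2, its close relative, differed by −0.030 and −0.11. HNRNPA0, which binds AU-rich elements, differed by 0.21 (SE 0.090, adjusted p = 0.806) and 0.18 (SE 0.090, adjusted p = 0.619).

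HNRNPH2, which with its relatives HNRNPH1 and HNRNPF binds runs of G, read 9.13, 9.16 and 9.07 in siCTR, 9.26, 8.81 and 9.59 in siDBC1 and 9.85, 9.80 and 9.27 in siZNF326. Replicates 1 and 2 of siZNF326 stood well above the controls, and replicate 3 was above them by less. The siZNF326 difference of 0.52 (SE 0.22, unadjusted p = 0.0462, adjusted p = 0.565) was the largest of an hnRNP and its interval ran from 0.011 to 1.03. HNRNPH1 differed by 0.21 (adjusted p = 0.659), HNRNPH3 by 0.070 and HNRNPF by −0.0054 in the same comparison. The paralogs share sequence, and cross-hybridisation between them was not tested.

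HNRNPL, which binds CA-rich repeats, went against the pattern over arrays. Its highest value, 11.09, was in siDBC1 replicate 2, where most members were lowest. The siDBC1 arrays of 10.96, 11.09 and 10.81 compared with 10.59, 10.80 and 10.81 in siCTR, a difference of 0.22 (SE 0.11, adjusted p = 0.866). Its paralog HNRNPLL, a regulator of splicing in lymphocytes, was lowest in siDBC1 replicate 2 at 5.06. It read 5.79 and 6.32 in the other siDBC1 arrays, 5.73 to 6.04 in siCTR and 6.0 to 6.55 in siZNF326. Between siZNF326 and siDBC1 HNRNPLL differed by 0.52 (SE 0.30, adjusted p = 0.751) and HNRNPL by −0.14 (adjusted p = 0.779). The HNRNPLL difference was 0.18 without siDBC1 replicate 2 and 0.81 without siDBC1 replicate 3.

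PTBP1, the polypyrimidine tract-binding protein that represses many exons, was the steadiest member, with a range of 0.32 over all 9 arrays. It read 10.09, 10.14 and 10.17 in siCTR, 10.15, 10.09 and 10.08 in siDBC1 and 10.05, 10.06 and 9.85 in siZNF326. As deposited, the siZNF326 arrays lay below all others, with differences of −0.15 from siCTR (SE 0.080, adjusted p = 0.652) and −0.12 from siDBC1 (adjusted p = 0.769). They overlapped siDBC1 after quantile normalization and after median centring, and without siZNF326 replicate 3 the difference from siDBC1 was −0.052. PTBP2, the paralog that replaces PTBP1 in neurons, varied 1.49 over the arrays. It was 7.60 in siDBC1 replicate 3 and 7.52 in siZNF326 replicate 1 against 6.11 in siDBC1 replicate 2, with differences from siCTR of 0.33 (adjusted p = 0.979) and 0.50 (adjusted p = 0.728). PTBP3 differed by 0.033 and −0.036.

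HNRNPR, which differed by 0.34 between siZNF326 and siDBC1 (SE 0.17, adjusted p = 0.729), was lowest in siDBC1 replicate 2 at 8.81, and without that array the difference was 0.15. Among the remaining hnRNPs, HNRNPA2B1, HNRNPD, HNRNPDL, HNRNPU, HNRNPUL1, HNRNPAB, RALY and SYNCRIP, differences ran from −0.058 (RALY) to 0.12 (HNRNPUL1) in siDBC1. In siZNF326 they ran from −0.17 (HNRNPAB) to 0.22 (HNRNPA2B1). HNRNPAB read 10.18, 10.19 and 10.10 in siZNF326, below its controls of 10.29, 10.33 and 10.37, and did not pass (adjusted p = 0.665).

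**Figure D4:**
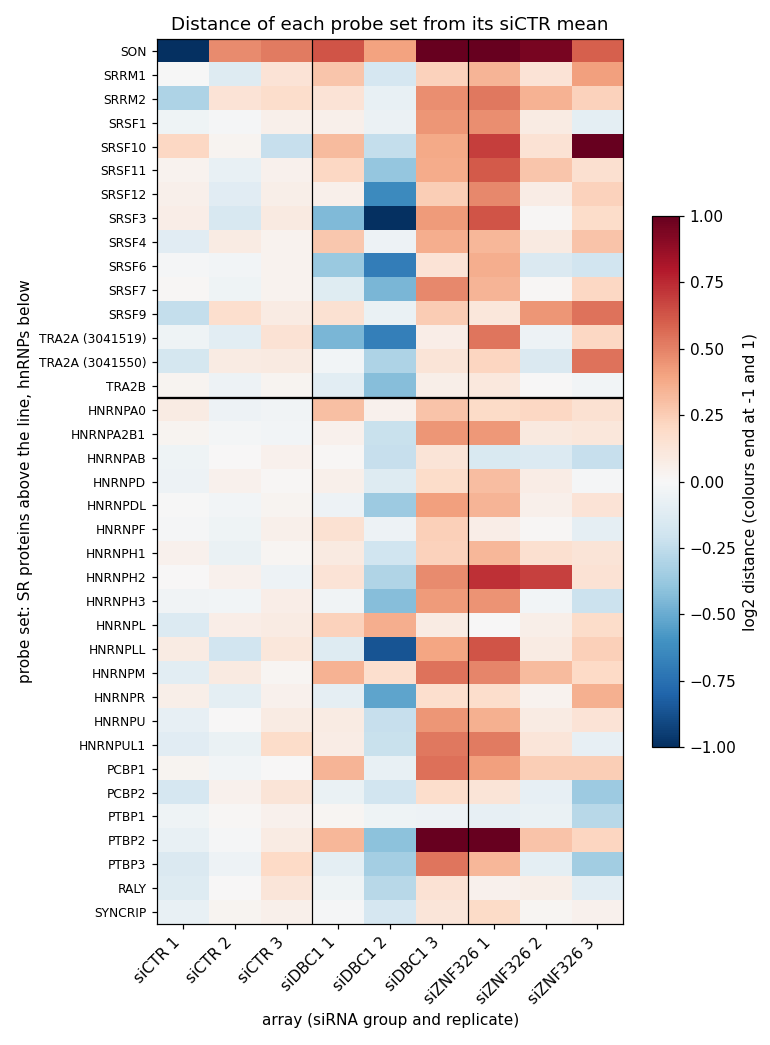
Log2 distance of each of the 37 probe sets (rows, SR proteins above the line and hnRNPs below) from its siCTR mean on each of the 9 arrays (columns), red above and blue below, with colours ending at −1 and 1. The column of siDBC1 replicate 2 is mostly blue, with SON, HNRNPA0, HNRNPL and HNRNPM above 0, and those of siDBC1 replicate 3 and siZNF326 replicate 1 are mostly red.

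Set side by side as deposited, the family medians of the group differences were close to each other in siDBC1 and further apart in siZNF326. On siDBC1 replicates 1, 2 and 3 the SR median distance minus the hnRNP one was 0.0038, −0.091 and 0.027. In siDBC1 the median difference from siCTR was 0.064 for SR and 0.039 for hnRNP probe sets, beside 0.014 over all probe sets, with 8 of 15 and 13 of 22 above siCTR against 53.8% of all. After quantile normalization it was 8 and 14 (50.4% of all), and after median centring 8 and 13 (49.8%). These values moved with the arrays that stood apart: the SR and hnRNP medians were 0.19 and 0.19 without siDBC1 replicate 2 and −0.090 and −0.080 without siDBC1 replicate 3. Without siDBC1 replicate 2, 11 of 15 and 21 of 22 were above, and without siDBC1 replicate 3, 6 of 15 and 5 of 22 (61.1% and 45.1% of all).

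In siZNF326 the median difference from siCTR was 0.26 for SR and 0.18 for hnRNP probe sets, beside 0.032 over all probe sets and 0.090 over those above the median level. All 15 SR and 16 of 22 hnRNP probe sets were above siCTR, against 56.6% of all probe sets, and 13 and 14 after quantile normalization (42.1%) or 13 and 13 after median centring (40.4%). Without siZNF326 replicate 1 the numbers were 12 and 15 (53.3% of all), and the hnRNP median was 0.10. The SR median was also lower without that array than with it. The 6 hnRNP probe sets below siCTR were HNRNPAB, HNRNPF, PCBP2, PTBP1, PTBP3 and RALY, named after their values were seen. The difference between the family medians, 0.081, was not tested, and on the single siZNF326 arrays it was 0.13, 0.012 and 0.10.

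Arrays labelled siZNF326 that did not overlap the controls were counted as well. They all lay above siCTR for 5 SR probe sets (SON, SRRM2, SRSF4, SRSF11 and SRSF12) and 8 hnRNP probe sets, against 12.9% of all probe sets and 18.3% of those above the median level. With quantile normalization the counts were 3 and 7, against 11.3% of all and 15.9% of those above the median level. With median centring the counts were 4 and 6, against 11.2% and 16.7%. As deposited, the siZNF326 arrays all lay below siCTR for 0 SR and 2 hnRNP probe sets (HNRNPAB and PTBP1), against 5.27%. With quantile normalization it was 0 and 3, against 14.3%, and with median centring 1 and 3, against 14.5%. In siDBC1 as deposited only HNRNPM of all 37 was fully above siCTR, against 5.18% of all probe sets.

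Directly between siZNF326 and siDBC1, the SR median was 0.26 and the hnRNP median 0.071, beside 0.024 over all probe sets. The mean of siZNF326 was above that of siDBC1 for all 15 SR and 14 of 22 hnRNP probe sets, against 55.4% of all, and for 13 and 9 after quantile normalization (43.7%) or 13 and 11 after median centring (40.7%). Without siDBC1 replicate 2 the medians were 0.068 and −0.090 and the counts 12 and 6, against 46.2%, and without siZNF326 replicate 1 it was 12 and 9, against 50.5%. The largest SR differences were those of SRSF3 and TRA2A given above. As deposited, only PTBP1 of the 37 had groups that did not overlap, with siZNF326 lower, where 4.24% of all were lower and 5.21% higher in this way. PTBP1 was not among those without overlap under the other scalings. Quantile normalization gave 3 higher (TRA2A, HNRNPH1 and HNRNPR; 6.56% of all) and 4 lower (HNRNPAB, HNRNPF, HNRNPM and PCBP2; 6.06%). Median centring gave 2 higher (TRA2B and HNRNPH1; 5.86%) and 3 lower (HNRNPAB, HNRNPF and HNRNPM; 6.69%).

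Regulators around the families gave the same kind of result. SR proteins are phosphorylated by SRPK and CLK kinases and carried into the nucleus by transportin 3 (TNPO3). Of 7 measured genes in this list, 0 passed in each comparison, with median differences of 0.094 in siDBC1 and 0.20 in siZNF326. CLK3 read 8.19, 8.25 and 8.26 in siCTR and 8.81, 8.67 and 8.58 in siZNF326, a difference of 0.45 (SE 0.12, unadjusted p = 0.00521, adjusted p = 0.298). TNPO3 was below its controls of 8.21, 8.03 and 8.28 in every other array, at 7.56, 6.90 and 7.92 in siDBC1 (difference −0.71, SE 0.23, adjusted p = 0.669) and at 7.99, 7.74 and 7.81 in siZNF326 (−0.33, adjusted p = 0.722). CLK4 differed by 0.28 and 0.63 (adjusted p = 0.981 and 0.637).

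Of 6 measured genes of nonsense-mediated decay, which removes the unproductive SR transcripts, 0 passed, with medians of −0.046 and 0.065. Those with the smallest p were SMG9 (−0.37 in siDBC1, adjusted p = 0.879), SMG8 (0.41 in siZNF326, adjusted p = 0.695) and UPF2 (0.50 in siZNF326, adjusted p = 0.725). Of 31 other splicing regulators, 0 passed, with medians of −0.0095 and 0.12. The neuronal regulator NOVA1 read 5.56, 5.42 and 5.68 in siCTR and 6.65, 5.88 and 6.14 in siZNF326, a difference of 0.66 (SE 0.21, adjusted p = 0.393). CELF2 read 6.49, 6.62 and 6.77 in siCTR and 7.43, 7.16 and 7.06 in siZNF326, a difference of 0.59 (SE 0.17, adjusted p = 0.347), and KHDRBS3 differed by −0.27 in siDBC1 (adjusted p = 0.812). The siZNF326 arrays of NOVA1 and of CELF2 were all above the controls, as for 7 of the 31 genes in this list, beside 12.9% of all probe sets and 18.3% of those above the median level.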

How the data were processed

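RNA was extracted with a column kit including a DNase step, ribosomal RNA was reduced, and targets carried biotin for Affymetrix's whole-transcript assay, according to the protocols in the labels. The deposited values are log2 values that the authors made with RMA, per the submitters' processing notes, which also name build hg18. The log base rests on RMA and the range of the values, and versions and filters are not given in the sources used here. No detection values were used, so levels near background were not marked. Levels of different probe sets were compared to pick those above the median level. Differences in level between genes were not interpreted.

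Limma 3.58.1 in R 4.3.3 fitted the 3 groups to all 22011 probe sets without filter, with two-sided moderated tests and Benjamini-Hochberg adjustment within each comparison. The 3 groups shared the estimate of the spread of each probe set. A call was an adjusted p below 0.05. Errors are SDs over 3 arrays or model SEs. The number of arrays limits the precision. The fit was also run on simulated data with independent noise and the same spread in all groups. Those data lack the shifts between arrays and the unequal spread seen here, so they cannot show how these affect the fit. Same-numbered arrays of different groups deviated from their group means with correlations from −0.30 to 0.40. Differently numbered arrays gave −0.57 to 0.61, so the replicate numbers were not taken to pair arrays.

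Gene symbols were those of the platform annotation, and a current gene table matched all 37 members by identifier and changed 0 symbols. Named were SRSF4, HNRNPM, any called member and the 4 members with the smallest p per family and comparison, with CCAR2, ZNF326 and the 3 genes with the smallest p of each further list. Other genes are named to account for all members. The members, lists and alternatives were chosen with earlier results of these data known. Promoters came from RefSeq on GRCh38.p14.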

Additional observations from a re-analysis of the deposited data

How the results depend on the processing

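The counts of SR and hnRNP probe sets called stayed at 0 in all 3 comparisons under every alternative run (quantile normalization, median centring, probe sets above the median level, replicate block, only the groups compared, and each array left out). In limma 1 to 3 members had an unadjusted p below 0.05 in the values as deposited. The highest count under an alternative was 11 of 37, in siZNF326 against siCTR without siDBC1 replicate 2. In that fit 2662 of all 22011 probe sets had an unadjusted p below 0.05, against 1904 as deposited. With only siZNF326 and siCTR in the fit the count was 10 of 37, where 2844 of all had such a p.

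Counts over all probe sets did move. For siDBC1 against siCTR (8) they were 69 with quantile normalization, 46 with median centring, 0 with a replicate block, 0 with only the 2 groups, and 0 to 4 with 1 array left out. For siZNF326 against siCTR (33) they were 196, 119, 1 and 5 in the same order, 68 among probe sets above the median level, and 1 to 64 with 1 array left out (64 without siDBC1 replicate 2, 26 without siDBC1 replicate 3). Between siZNF326 and siDBC1 (2) they were 28, 9, 0 and 0, and 0 to 1 with 1 array left out. The cause was not tested. At an unadjusted p below 0.05 the replicate block gave 1360, 2007 and 1769, and the 2-group fit 1100, 2844 and 1118. The block changed no call of a member.

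The SR median minus the hnRNP median ran from −0.048 to 0.0082 in siDBC1 when 1 array was left out. As deposited the siDBC1 medians were 0.064 and 0.039, so their difference lay above that range. With 1 array left out the range was 0.074 to 0.17 in siZNF326 and 0.14 to 0.26 between siZNF326 and siDBC1. Counts of probe sets without overlap between groups under other scalings were added after seeing the data. Against siCTR, siDBC1 was fully above for 1 SR and 2 hnRNP probe sets with quantile normalization and 3 and 2 with median centring (0 and 1 as deposited), and fully below for 3 SR with each (0). For siZNF326 against siCTR, 3 SR were above with quantile normalization (5) and 1 SR below with median centring (0). Between siZNF326 and siDBC1, 1 SR and 2 hnRNP were above and 4 hnRNP below with quantile normalization, and 1, 1 and 3 with median centring (0, 0 and 1). Between siZNF326 and siDBC1 the SRSF4 difference of 0.040 was −0.034 with quantile normalization and −0.037 with median centring, and ran from −0.082 to 0.12 with 1 array left out, and that of HNRNPM from −0.11 to 0.076. The other 25 differences followed in this way kept their sign. They were those of each named member in the comparison that named it, and of SRSF4 and HNRNPM in every comparison. Not all further differences kept theirs. In siZNF326 against siCTR that of SRSF6 was 0.0090 as deposited, −0.15 with quantile normalization and −0.083 with median centring. That of TRA2B was 0.027, −0.051 and −0.064 in the same order. No scanner files were used, so signal over background was not measured.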
